A study of Mus musculus with 2 samples.

Results

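The 10 genes described belong to the Hippo pathway, which restrains tissue growth, and were examined in hepatocytes of healthy and chronically injured mouse livers. They are the coactivators Yap1 and Wwtr1, which encodes TAZ, their DNA-binding partners Tead1 and Tead4, the kinase Lats2 and the targets Ctgf, Cyr61, Ankrd1, Amotl2 and Axl. These 10 genes of the 30153 on the array were selected by name, and the difference of these genes between the 2 arrays, the value described here, was already known when they were chosen. Every probe that carries a member's name was read, 13 probes in all. Ctgf and Cyr61 are the names of the array design for the genes now called Ccn2 and Ccn1.

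The first sample was of mature hepatocytes (MHs) from healthy livers, collected by low-speed and Percoll gradient centrifugation, and the other of Sox9+EpCAM- cells from livers injured by a diet with DDC, a compound that blocks small bile ducts. According to the methods of the study both livers were of Sox9-EGFP mice, in which GFP marks cells that express Sox9, and FACS for GFP+EpCAM- cells gave the Sox9+EpCAM- sample. MHs were not sorted, and the samples therefore differ in diet and in isolation together. The number of mice, their age and the feeding time behind each array are not given in the sources used here. Each RNA was hybridised to 1 Agilent array, so there are no replicates and no test, and a 4-fold difference served as the rule of size. The only error is that of the scanner software for a spot, given as ±, which leaves out the variation between mice.

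In the Hippo pathway a kinase cascade ending in LATS kinases phosphorylates YAP and TAZ and keeps them out of the nucleus. When the cascade is off, YAP and TAZ enter the nucleus, bind TEAD factors and switch on genes such as Ctgf, Cyr61 and Ankrd1. Some targets, among them Lats2 and Amotl2, restrain YAP in turn. In the liver, YAP is low in hepatocytes and high in bile duct cells, and its forced activity in hepatocytes turns on ductal genes. Its activity is set mainly by phosphorylation and location, which mRNA levels do not show.

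Of 43020 spots that are not controls, 27523 in MHs and 32158 in Sox9+EpCAM- cells were well above background. Intensities were divided by the 75th percentile of their array, 741 for MHs and 1110 for Sox9+EpCAM- cells, and differences are log2 values of Sox9+EpCAM- cells minus MHs. Both samples are male by their labels. Yet Xist, the RNA of the inactive X chromosome of females, had an intensity of 1940 in MHs and was not well above background in Sox9+EpCAM- cells, while Ddx3y on the Y chromosome stood well above background in Sox9+EpCAM- cells alone, with 642. These genes go against the label of the MH sample, and the part of sex in any difference between the samples cannot be told apart from diet and isolation. The albumin gene Alb had intensities of 207000 and 170000, and Sox9, the gene of the sort, passed background in Sox9+EpCAM- cells alone, with 60.2, and was at least 1.45-fold higher. Epcam, whose protein the sort selected against, was 13.3-fold higher in Sox9+EpCAM- cells.

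TEAD factors bind the motif GGAATG, which reads CATTCC on the other strand, and the promoters of the members were searched for it because the targets are defined through TEAD. RefSeq promoters (GRCm38.p6), from 250 bases before to 50 bases after a start site, were at hand for 7 members: Yap1, Wwtr1, Lats2, Cyr61, Ankrd1, Amotl2 and Axl. None was at hand for Ctgf, Tead1 and Tead4. All 7 genes hold the motif on one strand in at least 1 promoter, against 16.6% of 27025 genes. Within the 250 bases before the start it is present in 6 of the 7, against 14.4% of the genes, since the motif of Lats2 begins at base 5 relative to the start and its second promoter has none. The motif begins at -103 in Cyr61, at -210 and -123 in Ankrd1, at -65 in Amotl2, at -233 in Axl, at -141 in Yap1, and at -136 and -170 from the 2 start sites of Wwtr1. Since the targets are defined through TEAD, the shares among the members are partly set by how they were chosen. A match describes the letters and does not show binding.

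The 250 bases before the start are shown for 4 targets, those much higher in Sox9+EpCAM- cells (Cyr61, Ankrd1), one that differed little (Amotl2) and the one that was lower (Axl). They read 5′ to 3′ on the strand of the gene, with the motif in capitals. Cyr61 lies at chr3:145649986-145650235 on the minus strand, Ankrd1 at chr19:36119845-36120094 on the minus strand, Amotl2 at chr9:102717554-102717803 on the plus strand and Axl at chr7:25788734-25788983 on the minus strand.
Cyr61: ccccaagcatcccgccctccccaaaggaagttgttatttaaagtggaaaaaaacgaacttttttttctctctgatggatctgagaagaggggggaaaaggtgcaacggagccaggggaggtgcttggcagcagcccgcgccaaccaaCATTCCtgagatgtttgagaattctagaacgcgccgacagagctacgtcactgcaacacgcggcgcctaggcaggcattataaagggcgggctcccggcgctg
Ankrd1: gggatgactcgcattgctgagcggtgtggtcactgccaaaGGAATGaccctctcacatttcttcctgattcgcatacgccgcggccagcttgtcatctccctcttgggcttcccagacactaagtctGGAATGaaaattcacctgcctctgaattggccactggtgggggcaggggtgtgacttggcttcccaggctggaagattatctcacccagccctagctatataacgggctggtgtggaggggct
Amotl2: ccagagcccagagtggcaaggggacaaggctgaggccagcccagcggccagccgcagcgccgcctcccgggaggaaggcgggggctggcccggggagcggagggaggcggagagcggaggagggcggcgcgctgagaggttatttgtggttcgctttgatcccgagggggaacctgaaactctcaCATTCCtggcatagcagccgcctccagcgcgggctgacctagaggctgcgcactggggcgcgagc
Axl: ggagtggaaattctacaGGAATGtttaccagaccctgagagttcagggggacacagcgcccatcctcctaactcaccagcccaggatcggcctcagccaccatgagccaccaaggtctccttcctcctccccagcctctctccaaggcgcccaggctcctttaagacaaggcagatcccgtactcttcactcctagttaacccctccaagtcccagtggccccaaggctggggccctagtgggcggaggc
The promoters of Cyr61 and Ankrd1 hold the motif as do those of Amotl2 and Axl, so its presence in this window does not separate the targets by the direction of their difference.

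Of the 10 members, 3 were higher in Sox9+EpCAM- cells by 4-fold or more, and these were the targets Ctgf, Cyr61 and Ankrd1. The target Axl was at least 4-fold lower. Of 23417 genes with a difference, 5.59% were at least 4-fold higher and 5.57% at least 4-fold lower, and since the members were chosen with their differences known, nothing is read from this contrast. The other 6 members, among them both coactivators and both TEAD genes, differed by less than 4-fold by the probe that stands for the gene. The median log2 difference was 3.16 over the 6 targets, with Lats2 and Amotl2 counted among them, and -0.37 over the 4 effectors. No target lies near 3.16, which falls in the gap between 0.74 for Amotl2 and 5.58 for Cyr61. The effector median takes Tead1 by its brightest probe, and its sign turns with the other 2 Tead1 probes, which gave 0.35 and 0.59. Over all 10 members the median was 0.73, against -0.04 over all genes with a difference.

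**Figure D1:**
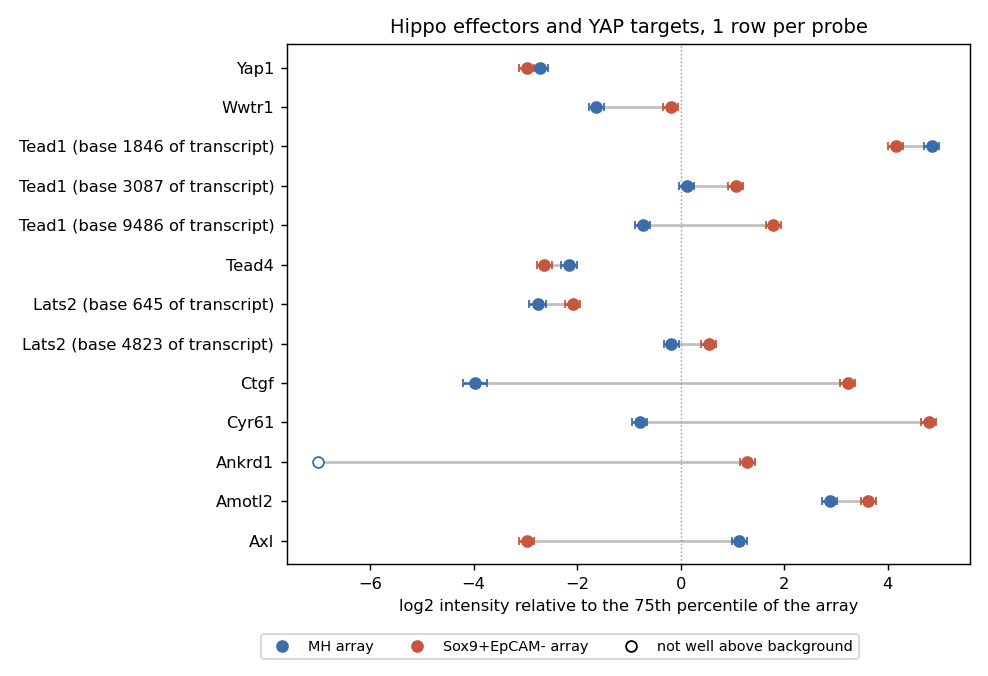
Log2 intensity of each of the 13 probes relative to the 75th percentile of its array, with the MH array in blue, the Sox9+EpCAM- array in red and bars for the error of the scanner software. Levels can be compared along a row but not between rows, and the rows of Ctgf, Cyr61, Ankrd1 and Axl are the widest apart.

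Yap1 encodes the coactivator YAP. Its probe, at 7932025 to 7932084 of chromosome 9 (mm9, as for all probe positions), gave intensities of 112 ± 13.2 in MHs and 141 ± 14.8 in Sox9+EpCAM- cells. After scaling this is a log2 difference of -0.25 ± 0.23, about as large as the error of the 2 spots, and it was 0.02 when the arrays were scaled to Gapdh. Yap1 mRNA was thus detected in both samples at about the same scaled level. Of the 19235 genes measured on both arrays, 47.2% had a lower difference, which puts Yap1 near the middle.

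Wwtr1 encodes TAZ, the paralog of YAP. Its probe, at 57259999 to 57260058 of chromosome 3, had intensities of 240 ± 24.7 in MHs and 973 ± 97.4 in Sox9+EpCAM- cells, which is a log2 difference of 1.44 ± 0.21. Wwtr1 was 2.71-fold higher in Sox9+EpCAM- cells, below the 4-fold rule but above the spot error. It lay above 92.8% of the genes measured on both arrays. Neither coactivator gene reached the 4-fold rule.

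**Figure D2:**
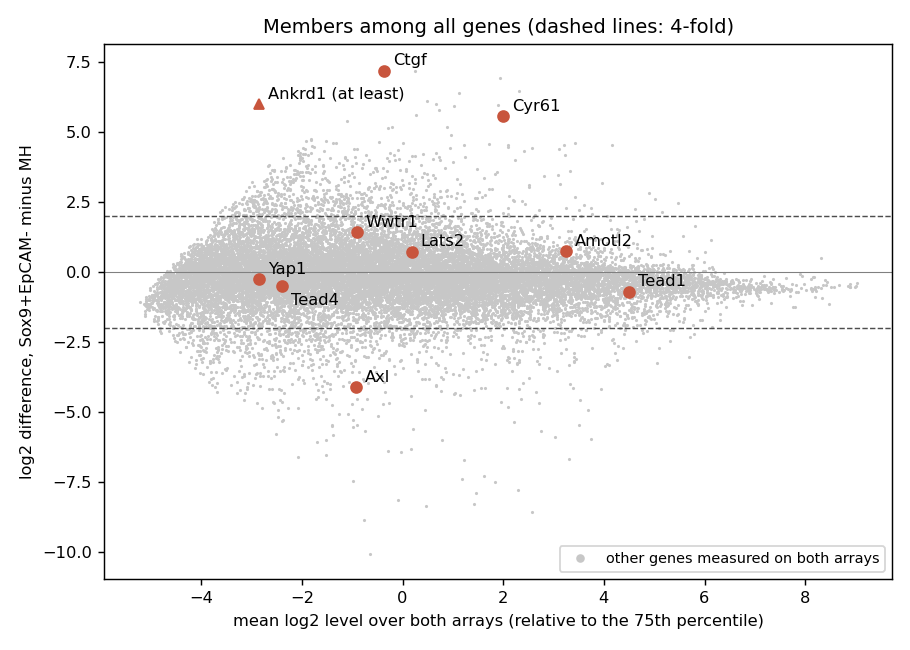
Log2 difference (Sox9+EpCAM- minus MH) against the mean log2 level for the genes measured on both arrays in grey, with the members in red and Ankrd1 as a bound. Ctgf and Cyr61 lie at the upper edge of all genes and Axl towards the lower edge, while Yap1 and Tead4 lie inside the cloud.

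Tead1 encodes one of the TEAD factors, and its 3 probes, all on 1 transcript, disagreed. The brightest, at 120042204 to 120042263 of chromosome 7, had intensities of 21400 ± 2140 in MHs and 19800 ± 1980 in Sox9+EpCAM- cells, with a log2 difference of -0.70 ± 0.20. A second one, at 120043445 to 120043504, had 804 ± 80.6 and 2320 ± 232, so 0.95 ± 0.20. The third, at 120049844 to 120049903, had 446 ± 45.0 and 3830 ± 383, a difference of 2.52 ± 0.20, or 5.73-fold higher. The rule that the brightest probe stands for a gene gives Tead1 as lower, and both other probes give it as higher, so the array does not settle its direction.

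The 3 Tead1 probes begin at bases 1846, 3087 and 9486 of the transcript, and their bases 6 to 35 are shown because the brightest holds a repeat. Capitals mark stretches of at least 8 bases in which C and A alternate.
Tead1 probe from base 1846: ACACACACAtatgtgCACACACACACtctc
Tead1 probe from base 3087: ttctctaagggcatctttccataagcctca
Tead1 probe from base 9486: aaggcatttggctaaacctcccggcagtac
The longest alternating stretch is 11 bases in the brightest probe and 5 and 3 in the others. Among probes of other genes, 65 hold a stretch of 11 bases or more. All 65 were well above background on both arrays, against 61.4% of all 39390 probes, and their differences lay close together, with quartiles of -0.76 and -0.59 around a median of -0.67, where all probes measured on both arrays had -0.18. The difference of the brightest Tead1 probe, -0.70, lies between these quartiles, and those of the other Tead1 probes lie above the highest value of the 65, which was 0.43. The limit of 11 bases was taken from the Tead1 probe itself after its values were seen, and binding of other RNAs to it was not tested.

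**Figure D3:**
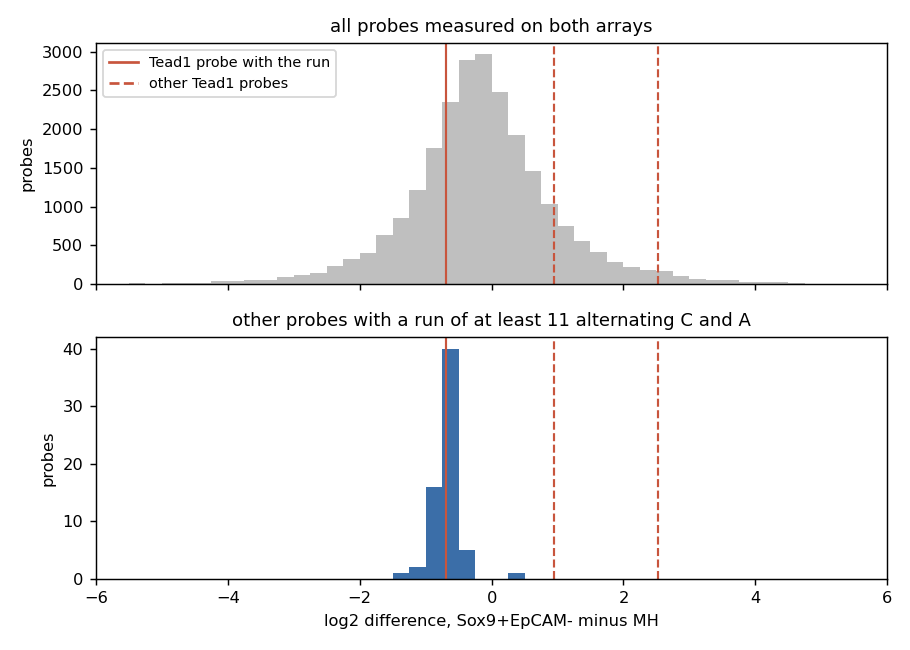
Number of probes by log2 difference (Sox9+EpCAM- minus MH), above for all probes measured on both arrays and below for the 65 probes of other genes with at least 11 alternating C and A, with the Tead1 probes as red lines (solid for the one with the repeat, dashed for the others). The axis is drawn from -6 to 6, and the 65 probes gather around the solid line, with 64 of them below 0.

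Tead4, another TEAD factor, has 1 probe, at 128177161 to 128177220 of chromosome 6. Its intensities were 167 ± 17.8 in MHs and 179 ± 18.3 in Sox9+EpCAM- cells, which is a log2 difference of -0.48 ± 0.21. The size is 1.40-fold, small against the 4-fold rule. Its paralog Tead3 had a difference of -0.04. Both probes of Tead2 passed background in Sox9+EpCAM- cells alone, with 43.3 for the probe from base 2055 of the transcript, at least 1.04-fold higher, and 85.9 for that from base 1867, at least 2.06-fold. By the probe with the highest mean log2 level, no TEAD gene measured on both arrays reached 4-fold. The bounds of Tead2 do not place it on either side of the rule.

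Lats2 encodes the kinase that phosphorylates YAP and is itself a YAP target. Its probe at 58308807 to 58308866 of chromosome 14 had intensities of 655 ± 65.9 in MHs and 1620 ± 162 in Sox9+EpCAM- cells, which is a log2 difference of 0.72 ± 0.20. The second probe, at 58341225 to 58341284, which the design assigns to another transcript of the gene, had 109 ± 12.7 and 262 ± 26.5, a difference of 0.68 ± 0.22. The 2 probes differ from each other by less than their error, and Lats2 was 1.65-fold higher by the brighter. Its paralog Lats1 was 1.19-fold higher.

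Amotl2 encodes a motin, a junction protein that binds YAP and holds it in the cytoplasm, and is also a target. Its probe, at 102635025 to 102635084 of chromosome 9, had 5460 ± 546 in MHs and 13700 ± 1370 in Sox9+EpCAM- cells. The log2 difference was 0.74 ± 0.20, or 1.68-fold higher. Lats2 and Amotl2, the 2 targets that restrain YAP, thus had differences of nearly the same size.

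Ctgf encodes a secreted matrix protein of the CCN family and is the most used readout of YAP. Its probe, at 24318281 to 24318340 of chromosome 10, was dim in MHs, with 47.3 ± 7.48, though well above background, and reached 10400 ± 1040 in Sox9+EpCAM- cells. This is a log2 difference of 7.20 ± 0.27, or 147-fold. Only 2 of the 19235 genes measured on both arrays had a larger difference, which makes Ctgf rank 3. Correction of the background by normexp, which raises dim signals, gave 5.98.

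Cyr61, the gene of a second CCN protein, was also far higher in Sox9+EpCAM- cells. Its probe, at 145310187 to 145310246 of chromosome 3, had 429 ± 43.4 in MHs and 30800 ± 3080 in Sox9+EpCAM- cells, which is a log2 difference of 5.58 ± 0.21, or 47.9-fold. It had rank 16 of the same 19235 genes. Its probe was well above background on both arrays, and its difference lay between 5.40 and 5.85 under all 10 alternatives.

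Ankrd1 encodes an ankyrin repeat protein of the nucleus and sarcomere that is induced by YAP. Its probe, at 36186809 to 36186868 of chromosome 19, gave a signal of only 5.76 in MHs, not distinguishable as well above background, against 2710 ± 271 in Sox9+EpCAM- cells. Against 27.8, the lowest intensity well above background on the MH array, Ankrd1 was at least 65.1-fold higher, a log2 difference of at least 6.02. With normexp the value was 4.56. Its order against Ctgf is not known, since it is only a bound. The bound lies above the difference of Cyr61, but with normexp it lay below.

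Axl encodes a receptor tyrosine kinase of the TAM family, known as a YAP target in tumour cells and expressed by macrophages. Its probe, at 26542541 to 26542600 of chromosome 7, had 1620 ± 162 in MHs and 141 ± 14.6 in Sox9+EpCAM- cells. In Sox9+EpCAM- cells Axl was 17.2-fold lower, with a difference (log2) of -4.11 ± 0.21. Of the genes measured on both arrays, 96 had a lower value, so that Axl has rank 97 from the bottom. It was well above background on both arrays and is the only member that differed by 4-fold or more in this direction.

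Markers of other cell types also differed between the samples. Of all genes with a difference, 5.59% were at least 4-fold higher and 5.57% at least 4-fold lower. The marker lists were chosen with earlier results of these data known, so nothing is read from their counts against these shares. Of the 8 leukocyte markers, 7 had differences below 0 and 3 were at least 4-fold lower, with a summed level (75th percentile of the array set to 1) of 28.8 in MHs and 14.2 in Sox9+EpCAM- cells. Most of both sums is the brightest probe of Csf1r, and without this gene they were 12.3 and 1.86, while the 3 Csf1r probes had differences of -0.42 for the brightest, -2.71 and -0.70. Among the 8 markers the Kupffer cell gene Clec4f was 86.1-fold lower and the macrophage gene Emr1 20.2-fold lower, while Cd68 was 14.4-fold higher and Ptprc, the common leukocyte gene, differed by -0.24. Of 8 endothelial markers, 7 had a difference, all below 0, and 4 were at least 4-fold lower, with Pecam1 at -0.75, Lyve1 above background on neither array, and summed levels of 7.73 and 2.76. The part of these cells in the difference of Axl was not tested, and in bulk RNA fewer cells of a type and less RNA per cell cannot be told apart.

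Ctgf, Cyr61 and Ankrd1 stood on the side of the fibroblast, immediate early and some ductal genes. The counts of these lists stand beside 5.59% of all genes at least 4-fold higher and 5.57% at least 4-fold lower. Of 12 fibroblast and stellate cell genes 11 had a difference, 10 of them above 0 and 6 at least 4-fold higher, and 1, Lrat of quiescent stellate cells, was at least 7.70-fold lower, with summed levels of 12.4 in MHs and 54.5 in Sox9+EpCAM- cells, or 1.46 and 41.0 without Dcn. Col3a1 was 85.1-fold higher, and Pdgfrb was above background on neither array. All 10 immediate early genes, which respond within minutes to stress or cell isolation, were higher, 9 of them at least 4-fold, with Fos at 24.4-fold and summed levels of 35.4 and 389. Ctgf and Cyr61 are themselves known to respond to serum and to loss of cell contact within an hour or so. The part of fibroblasts and of the isolation was not tested.

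The cholangiocyte markers were less uniform, with 2 of 7 at least 4-fold higher, Epcam and Spp1, 5 above 0 and 2 below 0. Beside this count and that of the hepatocyte markers, 5.59% of all genes were at least 4-fold higher and 5.57% lower. Krt19 had a difference of 0.42 and Krt7 of -0.23, and Cftr was lower, with 69.6 in MHs and 52.1 in Sox9+EpCAM- cells before scaling. The list had summed levels of 2.27 and 48.9, or 1.92 and 6.52 without Spp1. The 10 hepatocyte markers all had differences below 0, from -0.23 for Hnf4a, close to the median of -0.19 over genes measured on both arrays, downwards, and 4 were at least 4-fold lower, with a median of -1.42 and summed levels of 1166 and 487. Among the 5 sex-linked genes, all 4 of the Y chromosome passed background in Sox9+EpCAM- cells alone, and Xist in MHs alone.

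The rest of the pathway was read from 3 lists. All 3 were chosen with earlier results of these data known, so nothing is read from their shares beside those of all genes. Among 17 genes of the kinase cascade and its upstream regulators, 16 had a difference, 1 was at least 4-fold higher and 1 at least 4-fold lower, shares near the 5.59% and 5.57% of all genes, with a median of -0.04. The higher gene was Wwc2, a scaffold that activates LATS, with intensities of 72.5 and 575, or 5.29-fold. The lower was Fat4, an atypical cadherin, with 156 on the MH array and a signal not well above background on the other, at least 12.7-fold. The kinases Stk3 and Stk4 (MST), Nf2, which encodes merlin, and Wwc1 had differences of -0.80, -0.17, -0.11 and -0.15, and Sav1 was above background on neither array. Stk4 is given by its brightest probe, and its other probes gave 0.08 and at least 0.98. In the whole list 7 differences were above 0 and 8 below 0. Of Map4k4, a kinase that acts beside MST, the brightest probe gave 1.90 and the other, from base 4223 of the transcript, 4.81.

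Of 8 genes for partners of YAP, TAZ and TEAD, 2 were at least 4-fold higher and 0 at least 4-fold lower, beside 5.59% and 5.57% of all genes, with a median of 1.48. They were Ajuba, a LIM protein that restrains LATS and is named Jub on the array, with 192 and 2270 or 7.89-fold, and Amotl1, a motin, with 49.3 and 349 or 4.73-fold. Vgll4, which competes with YAP for TEAD, was 3.58-fold higher, and Amot, another motin, was at least 3.63-fold higher, a bound that does not place it on either side of the rule.

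Of 16 further YAP and TAZ targets, 15 had a difference, 5 were at least 4-fold higher and 1 at least 4-fold lower, with a median of 0.66. These shares, 5 and 1 of 15, stand beside 5.59% and 5.57% of all genes. As the targets were listed with earlier results of these data known, nothing is read from this contrast. Tgfb2, a ligand of the TGF-beta family, had 127 and 9360 by its brighter probe, a log2 difference of 5.62, but 0.43 by its other probe. F3, which encodes tissue factor, was 17.1-fold higher by the probe that stands for the gene, with 296 and 7600. Its other probe gave 15.6, not well above background, and 15500, at least 372-fold higher. Gadd45a, a stress response gene, was 21.6-fold higher, with 952 and 30800. Igfbp3, a binding protein of insulin-like growth factors, was at least 11.1-fold higher by 1 probe, its other probe being above background on neither array. Ccdc80, a matrix protein gene, was 7.91-fold higher by its brighter probe. Its other probe had 17.9, not well above background, and 58.7, at least 1.41-fold higher. Nt5e, which encodes the ecto-enzyme CD73, was 33.3-fold lower, from 2020 to 90.9, while 11 of the 15 were above 0. The remaining 9 lay within 4-fold or were bounds below it, and Foxf2 was above background on neither array.

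**Figure D4:**
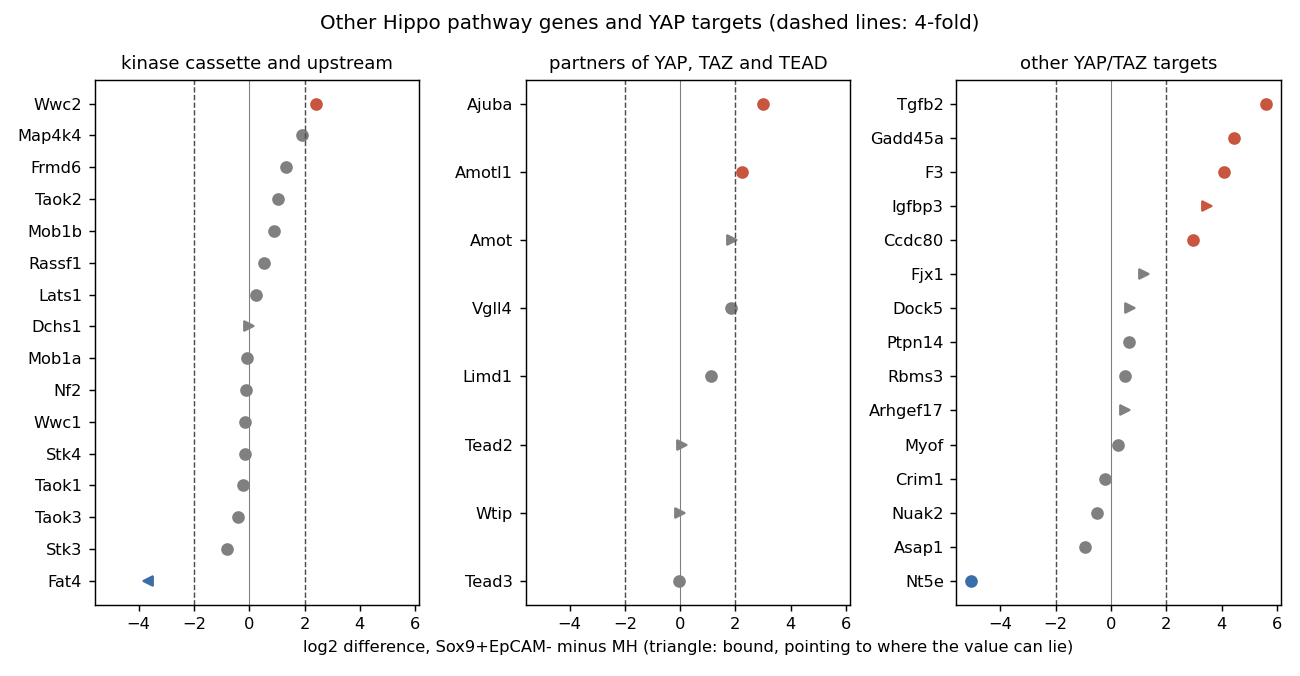
Log2 difference (Sox9+EpCAM- minus MH) of other pathway genes and targets by the brightest probe, with triangles for bounds, dashed lines at 4-fold, red for at least 4-fold higher and blue for at least 4-fold lower. The upstream genes gather around 0, and 5 of the 15 targets lie right of the upper line. The genes were listed with earlier results of these data known.

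No member that was 4-fold different lost this under another scaling, background correction or choice of probe, and the order of Ctgf before Cyr61 was kept throughout. Tead1 is the member whose direction depended on the probe, and the sign of Yap1 turned only with Gapdh scaling. Stretches of 20 bases that recur in another gene's probe, found in 7.19% of all probes, were present in 0 of the 13.

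**Figure D5:**
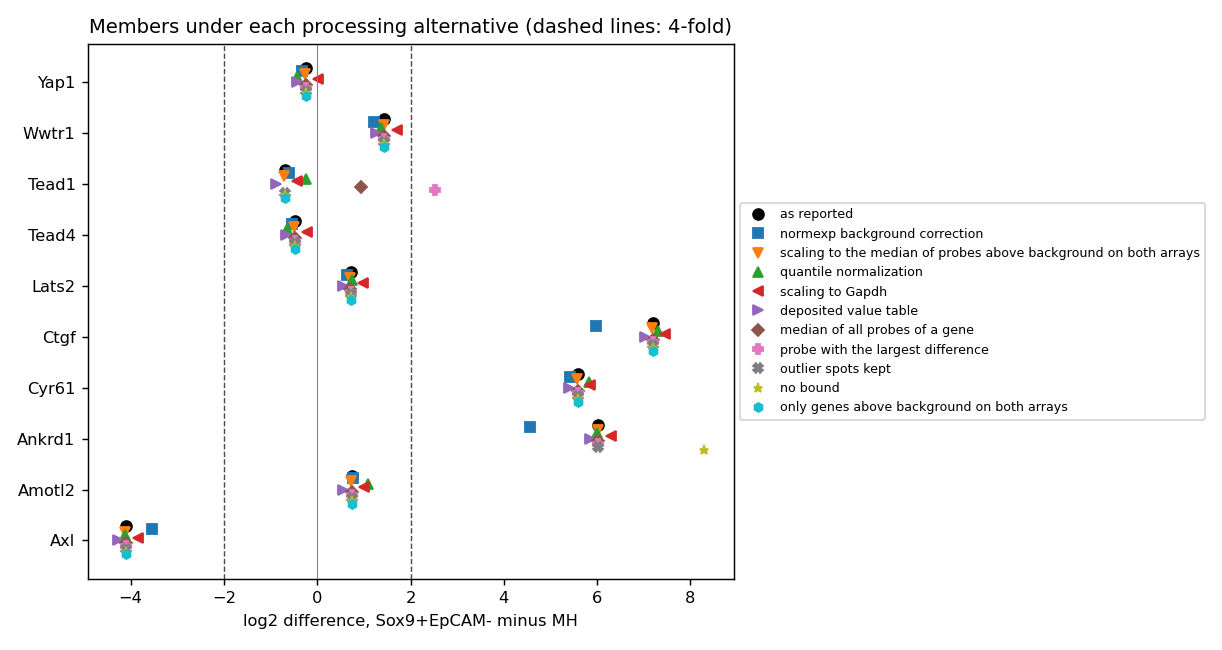
Log2 difference (Sox9+EpCAM- minus MH) of each member as reported (black circle) and under 10 alternatives (coloured marks), with dashed lines at 4-fold. Tead1 spreads from -0.87 to 2.52, its highest values coming from the other choices of probe, and Ankrd1 from 4.56 to 8.29 with the treatment of its dim MH signal.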

How the data were processed

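RNA of MHs and of Sox9+EpCAM- cells was measured on 1 Agilent array each, both on 1 slide and in 1 scan. Per the file headers, the authors deposited the spot intensity of Feature Extraction 10.7.3.1, background-subtracted and detrended but not normalized between arrays, and its error. In their deposited value table each ratio is this intensity over the median of the array. Probe positions are of mm9 per the file headers.

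Each array was scaled by its 75th percentile and log2 values were taken. Spots flagged by the scanner software on either array were dropped and repeated spots averaged, leaving 39390 probes. Each gene is represented by the probe with the highest mean log2 level over both arrays, called its brightest. A probe well above background on 1 array only was set as a bound: the dim value was its own signal or the least signal well above background there (27.8 for MHs, 18.4 for Sox9+EpCAM- cells), whichever was higher. A bound that did not reach past 0 was set to 0, and list medians use bounds at their value. No spot was saturated. The median SD between spots of 1 probe was 0.08 (log2) on each array. The number of arrays limits the precision.

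Of 30153 gene names, 19975 are current RefSeq symbols and 2280 are synonyms. The members and the gene lists were chosen with earlier results of these data known, and the probe repeat and the gene families were examined after values were seen. Genes named are the members, listed genes at least 4-fold different, paralogs of members and some markers, and a few more were picked with their values in view. Alternatives were normexp background correction with an offset of 50 (limma 3.58.1, R 4.3.3), scaling to Gapdh or to the median of detected probes, quantile normalization, the deposited table, other choices of probe, flagged spots kept, no bound, no genes with a bound, and other thresholds. Each Tead1 probe in turn and list sums without the brightest gene were added after seeing the data. Python 3.11.15 with pandas 2.3.3, numpy 2.4.6 and matplotlib 3.10.9 was used. On simulated data with 200 of 30167 genes altered, all 134 altered genes measured on both arrays came out within 1.5-fold. The second simulated array was a copy of the MH array and its background flags with small noise. The simulation therefore does not cover differences of scale or background between real samples. The quantitative PCR, staining and culture of the study were not analysed here.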

Additional observations from a re-analysis of the deposited data

How the results depend on the processing

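A member's value was called moved when it differed by more than 1.5-fold from that reported, and a count when it differed by more than 1.5 times. The counts of members at least 4-fold higher (from 2 to 4 under the alternatives) and lower (1) and the median of the members (from 0.56 to 1.09) did not move. For Tead1 the median of all probes gave a log2 difference of 0.95 and the probe with the largest difference 2.52, since its probes disagree. Normexp correction, whose offset compresses dim signals, gave 5.98 for Ctgf and 4.56 for Ankrd1, with 612 genes at least 4-fold higher and 660 lower of all genes, against 1309 and 1304 reported. Without the bound Ankrd1 had 8.29, which divides by a signal not well above background. Without genes that have only a bound, 758 of all genes were higher by 4-fold or more, and there was no value for Ankrd1. At 2-fold, 3319 of all genes were higher and 3918 lower, and at 10-fold 363 and 344. The median difference over genes detected in both samples shifted by 0.27 with Gapdh scaling and by -0.18 in the deposited table. The other 7 members stayed within 1.5-fold under all alternatives run. Signal over background limits Ankrd1 and, less so, Ctgf on the MH array. Neither a block for the slide nor a left-out replicate could be fitted. No paired analysis was possible because the 2 groups hold a single array each.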

Other observations

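The families of the members were read after the values of some were known. Of the 6 genes of the CCN family, Ctgf and Cyr61 were higher in Sox9+EpCAM- cells by 4-fold or more, beside 5.59% of all genes. Both are members chosen with their differences known, so nothing is read from this count. Wisp1 was 2.73-fold higher by 1 of its 2 probes, with intensities of 39.6 in MHs and 162 in Sox9+EpCAM- cells, the other probe being above background on neither array. Wisp3 had a log2 difference of -0.60, and Nov and Wisp2 were above background on neither array. Of the ankyrin repeat genes related to Ankrd1, Ankrd2 was 5.31-fold lower, with 411 and 116, and Ankrd23 had a difference of -0.04. Of the 3 motin genes 1 was at least 4-fold higher, beside 5.59% of all genes, and this was Amotl1 with a difference of 2.24. Amot had at least 1.86 and Amotl2 0.74.

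The receptors related to Axl differed among themselves. Mertk, which like Axl serves macrophages in the uptake of dying cells, had intensities of 673 and 311 and was 3.24-fold lower, and Tyro3 had a difference of 0.26. Of their ligands, Gas6 was 2.70-fold higher, with 917 and 3710, and Pros1, a plasma protein made by hepatocytes, had a difference of -0.16. The receptor Axl and its ligand Gas6 were thus on opposite sides. Of the other vestigial-like cofactors of TEAD beside Vgll4, Vgll2 had a difference of -0.44 and Vgll1 and Vgll3 were above background on neither array.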
